A study of Arabidopsis thaliana with 8 samples.

Results

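The DNA windows bound by 2 ALOG proteins, rice G1 and Arabidopsis LSH1, were compared. Their lists held 6902 and 13758 windows, 20660 of the 116684 windows in the 7 lists of the series. A G1 window was called shared when it overlapped an LSH1 window by at least 1 bp, which divided the lists into 5432 G1 windows with LSH1, 1470 G1 windows without LSH1, 5495 LSH1 windows with G1 and 8263 LSH1 windows without G1. The assay was ampDAP-seq, which incubates tagged protein with amplified genomic DNA, purifies the protein and sequences the DNA that stays with it. The DNA was taken from Arabidopsis thaliana seedlings 2 weeks old, and it was the same source for both proteins. No genotype or strain, no construct and no tag is named in the labels. The proteins were made with the TnT transcription and translation system, so neither was tested in a plant cell. G1 was thus tested on the DNA of another species than its own.

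ALOG proteins are plant transcription factors that share a DNA-binding domain and take their name from Arabidopsis LSH1 and Oryza G1. LSH1 was first described in light-dependent seedling growth, and relatives of it act at organ boundaries and in flowers. G1 keeps the sterile lemma of the rice spikelet from growing into a lemma. Amplified DNA carries neither methylation nor chromatin, so a window describes what the protein can retain from bare DNA.

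Each list is the consensus of 3 replicates, of which only peaks present in all were kept, and each window is 200 bp wide with no score or read count. There is thus 1 list per protein, no spread between replicates can be given, and no p-value was computed. Intervals below are 95% Wilson intervals for shares and 95% Newcombe intervals for differences of shares, and both cover counting error only. The read depth is unknown, and the LSH1 list is the longer of the pair. An input sample was not analysed here, so background common to both libraries cannot be told apart from binding.

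Most G1 windows lay where LSH1 also had one. LSH1 held 78.7% of the G1 windows (77.7 to 79.7%), whereas G1 held 39.9% of the LSH1 windows (39.1 to 40.8%). The second share has a low ceiling, because the G1 list is only 50.2% as long as the LSH1 list. The first share was 77.4% on chromosome 1, 77.9% on chromosome 2, 80.8% on chromosome 3, 78.9% on chromosome 4 and 78.7% on chromosome 5, with intervals that overlapped. The second ranged from 39.5% on chromosome 4 to 41.1% on chromosome 5. No chromosome stood apart in either direction.

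Shared windows were nearly superimposed. In 5518 pairs of overlapping windows the median overlap was 190 bp of 200, and the median distance between centres was 10 bp (quartiles 4 and 22 bp). The centres lay within 20 bp of each other in 73.3% of pairs and within 50 bp in 91.9%, and 188 pairs (3.41%) were more than 100 bp apart. The pairing was close to 1 to 1, as 5346 G1 windows overlapped 1 LSH1 window and 86 overlapped 2. The LSH1 centre was at the higher coordinate in 2588 pairs and at the lower in 2773, with a mean signed distance of -0.72 bp (LSH1 minus G1). In genome coordinates, neither protein's windows were thus displaced as a whole from those of the other. The orientation of the bound sequence was not used, so a displacement relative to it cannot be seen this way.

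Unshared windows mostly lay more than 1000 bp from a window of the other protein, with a minority of near misses. Of the G1 windows without LSH1, 10.4% (8.95 to 12.1%) had an LSH1 window within 200 bp and 32.0% (29.6 to 34.4%) within 1000 bp, with a median gap of 2100.5 bp. Of the LSH1 windows without G1, 3.78% (3.39 to 4.21%) had a G1 window within 200 bp and 14.6% (13.8 to 15.3%) within 1000 bp, with a median gap of 5302 bp. Within 5000 bp the shares were 74.1% (71.8 to 76.3%) for G1 windows without LSH1 and 48.0% (46.9 to 49.1%) for LSH1 windows without G1. The sparser G1 list makes its nearest window farther away by construction. Whether the gaps differ from those of windows placed at random was not tested. The plot of spacing shows the narrow peak of centre distances and the gaps of the unshared windows. Within its own list, a further window lay within 200 bp of 10.9% (9.39 to 12.6%) of G1 windows without LSH1 and of 7.81% (7.12 to 8.55%) of those with it, and for LSH1 the shares were 12.6% (11.9 to 13.3%) without G1 and 12.3% (11.5 to 13.2%) with it.

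**Figure D1:**
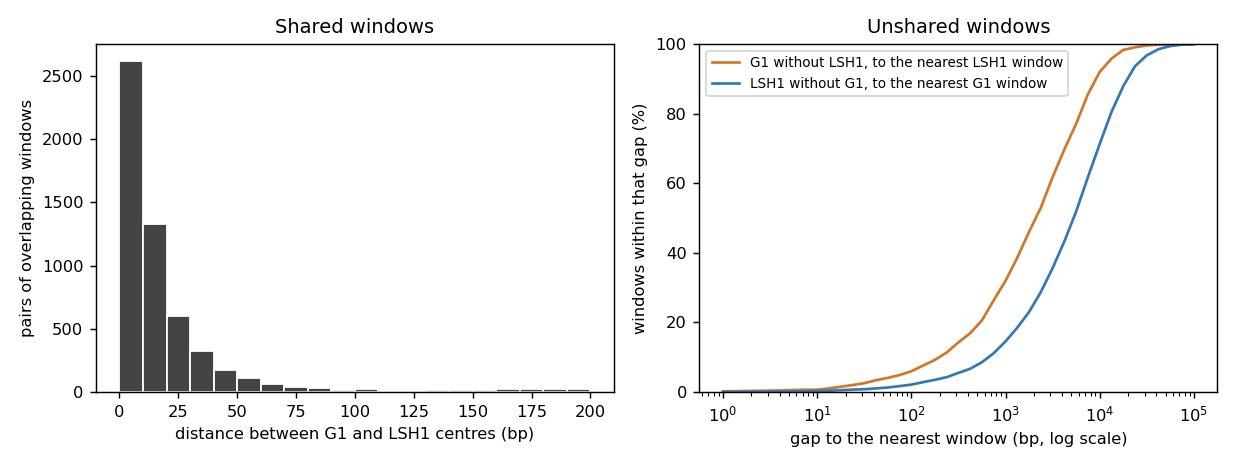
Left, number of overlapping G1 and LSH1 window pairs by distance between their centres in bins of 10 bp. Right, cumulative percentage of unshared windows by the gap to the nearest window of the other protein (bp, log scale). The median distance of shared pairs is 10 bp, while the median gaps are 2100.5 bp for G1 without LSH1 and 5302 bp for LSH1 without G1.

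The classes differed in how many of the other proteins had a window on the same DNA. The 5 other lists are LSH2 and LSH3 of Arabidopsis, TMF of tomato and LOS1 and LOS2 of Marchantia, and none of them was used to define the classes. Of the shared G1 windows, 56.8% (55.5 to 58.1%) were in all 5 other lists and 10.2% (9.44 to 11.1%) in none. Of the G1 windows without LSH1, 15.8% (14.0 to 17.7%) were in all 5 and 50.3% (47.7 to 52.8%) in none. LSH1 windows without G1 lay between, with 34.0% (33.0 to 35.1%) in all 5 and 24.3% (23.4 to 25.2%) in none. These 739 G1 windows and 2006 LSH1 windows were held by 1 protein alone.

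LSH1 windows without G1 leaned to the Arabidopsis relatives more than shared windows did. LSH2 held 68.6% (67.6 to 69.6%) of the LSH1 windows without G1 and LSH3 held 63.1% (62.0 to 64.1%), against 43.8% (42.8 to 44.9%) for TMF, 40.5% (39.5 to 41.6%) for LOS1 and 44.7% (43.6 to 45.8%) for LOS2. LOS2 has the most windows of any list, 29555, and was not the highest. LSH2 and LSH3, with 21486 and 17263 windows, are however longer than TMF and LOS1, with 13667 and 14053. LSH2 and LSH3 were also highest for shared G1 windows, at 82.5% and 77.3%. TMF held 73.9% of those, LOS1 66.3% and LOS2 65.1%, so the shares lay closer together. The combination of LSH2 and LSH3 with no further list accounted for 1293 of the LSH1 windows without G1, or 15.6% (14.9 to 16.4%), against 4.23% (3.73 to 4.80%) of the shared G1 windows. These are windows of the 3 Arabidopsis proteins alone.

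G1 windows without LSH1 showed no such lean. LSH2 held 29.9% of them (27.6 to 32.3%), LSH3 29.7% (27.4 to 32.1%), TMF 28.2% (26.0 to 30.6%), LOS1 29.2% (26.9 to 31.6%) and LOS2 36.5% (34.0 to 39.0%). The first 4 intervals overlap one another, and LOS2, the longest list, was highest. The difference from LSH1 windows without G1 was -38.7 percentage points for LSH2 (-41.2 to -36.1), -33.4 for LSH3 (-35.9 to -30.8) and -15.6 for TMF (-18.1 to -13.0). It was -11.3 for LOS1 (-13.8 to -8.72) and -8.25 for LOS2 (-10.9 to -5.54).

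**Figure D2:**
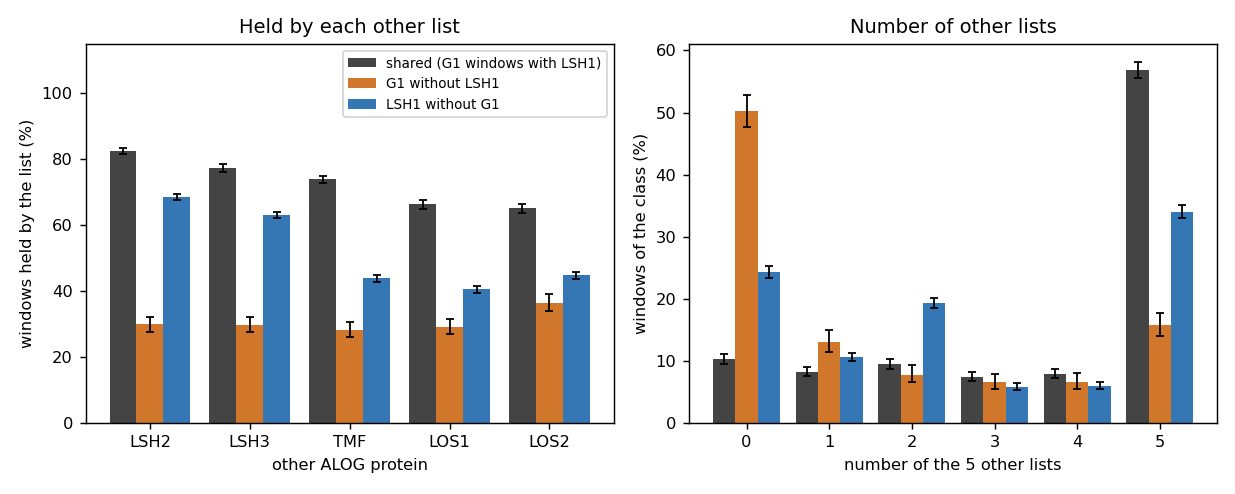
Percentage of shared G1 windows, G1 windows without LSH1 and LSH1 windows without G1 that each other ALOG list held (left) and that were in 0 to 5 of the other lists (right), with 95% Wilson intervals. LSH2 and LSH3 hold 68.6% and 63.1% of the LSH1 windows without G1, while 50.3% of the G1 windows without LSH1 are in no other list.

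Read the other way, G1 and LSH1 coincided more often where more proteins bound. LSH1 held 42.9% (40.2 to 45.6%) of G1 windows found in no other list, 69.9% (66.2 to 73.3%) of those in 1 other list and 93.0% (92.1 to 93.8%) of those in all 5. Between 2 and 4 other lists the share was flat at 80.8 to 81.8%. G1 held 21.7% (20.2 to 23.4%) of LSH1 windows in no other list and 52.5% (51.2 to 53.8%) of those in all 5. This second share was not even in its course, since it was 33.8% (31.3 to 36.4%) with 1 other list and 24.7% (22.9 to 26.6%) with 2, the group that contains the windows of LSH1, LSH2 and LSH3 alone. Shared windows were also more tightly superimposed where all 5 other lists held them, with centres within 20 bp in 78.6% of 3135 pairs (77.1 to 80.0%), against 64.6% of 559 pairs held by no other list (60.5 to 68.4%).

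Next, windows were placed relative to 27444 protein-coding genes by their centres. Windows of all classes lay mainly in gene bodies, where 54.1% of the chromosome bases lie. The share was 77.3% for shared G1 windows (76.1 to 78.4%), 81.4% for G1 windows without LSH1 (79.3 to 83.3%) and 77.8% for LSH1 windows without G1 (76.9 to 78.7%). Shared G1 windows minus G1 windows without LSH1 gave -4.08 percentage points (-6.30 to -1.73), and G1 windows without LSH1 minus LSH1 windows without G1 gave 3.57 points (1.32 to 5.68). The first was -2.54 points when unshared windows had to lie at least 1000 bp from the other protein, and the second was 6.40 points when all genes of the table, pseudogenes included, were counted and 6.72 points among windows that a further list also held. These differences were not the same at each number of other lists. Among windows in no other list, gene bodies held 84.5% of shared G1 windows and 80.5% of G1 windows without LSH1. For LSH1 windows without G1 it was 84.9%. There shared minus unshared G1 windows gave 3.99 points (-0.23 to 8.08). Unshared LSH1 minus unshared G1 windows gave 4.43 points (1.28 to 7.79). In all 5 other lists the 3 shares were 72.7%, 81.9% and 69.6%. For LSH1, windows with G1 minus windows without it differed by -0.63 points (-2.06 to 0.79), an interval that includes 0.

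Over all windows, the unshared windows of the pair also differed in the flanks. Outside genes but within 1000 bp of an end lie 20.4% of the bases. That zone held 10.1% (9.37 to 10.97%) of shared G1 windows, 10.4% (9.78 to 11.1%) of LSH1 windows without G1 and 6.67% (5.50 to 8.06%) of G1 windows without LSH1. The last class minus LSH1 windows without G1 was -3.75 points (-5.10 to -2.22). Its density there was 0.327 times the mean over all bases, against 0.497 times for shared windows and 0.511 times for LSH1 without G1. Seen by place, 84.9% (81.9 to 87.4%) of the G1 windows in this zone were shared with LSH1, against 77.8% (76.3 to 79.1%) in gene interiors, here taken as deeper than 600 bp from both ends of a gene. These differences were not the same at each number of other lists. In no other list the zone held 5.59% of shared G1 windows, 5.95% of G1 windows without LSH1 and 5.18% of LSH1 windows without G1. In 1 to 4 other lists the shares were 5.87%, 5.81% and 8.83%, and in all 5 they were 13.4%, 10.8% and 16.1%. In no other list, unshared LSH1 minus unshared G1 windows gave -0.77 points (-2.91 to 1.06). Farther outside, the 3 classes held 11.8 to 12.6% of their windows, against 25.5% of the bases.

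Inside genes the order was different. Gene interiors held 50.3% (47.8 to 52.9%) of G1 windows without LSH1, 47.6% (46.3 to 48.9%) of shared G1 windows and 44.6% (43.6 to 45.7%) of LSH1 windows without G1, and 29.4% of the bases. Inside within 600 bp of an end, where 24.8% of the bases lie, the shares were 31.0% (28.7 to 33.4%), 29.7% (28.5 to 30.9%) and 33.1% (32.1 to 34.2%). LSH1 windows with G1 minus those without G1 gave -3.59 points near the ends (-5.16 to -2.01) and 2.96 points in interiors (1.26 to 4.66). The order was not the same at each number of other lists. Interiors held 44.0% of shared G1 windows and 34.6% of LSH1 windows without G1 among those in no other list, 47.5% and 50.1% among those in 1 to 4, and 48.3% and 45.1% among those in all 5. Near the ends inside, windows in 1 to 4 other lists were at 35.4% (33.2 to 37.7%) when shared and 30.2% (28.7 to 31.8%) for LSH1 without G1.

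In steps of 200 bp, density rose sharply at the gene end in each class. For shared windows it was 0.486 times the class mean in the last 200 bp outside genes, 0.772 times in the first 200 bp inside, 1.38 times at 200 to 400 bp and 1.86 times at 1200 to 1400 bp. LSH1 windows without G1 reached 1.56 times at 200 to 400 bp and were at 1.51 times at 1200 to 1400 bp (1.37 to 1.66). G1 windows without LSH1 went from 0.388 times just outside (0.282 to 0.532) to 2.05 times at 1200 to 1400 bp (1.68 to 2.48). Both ends of a gene were treated alike, as the orientation of genes was not used.

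**Figure D3:**
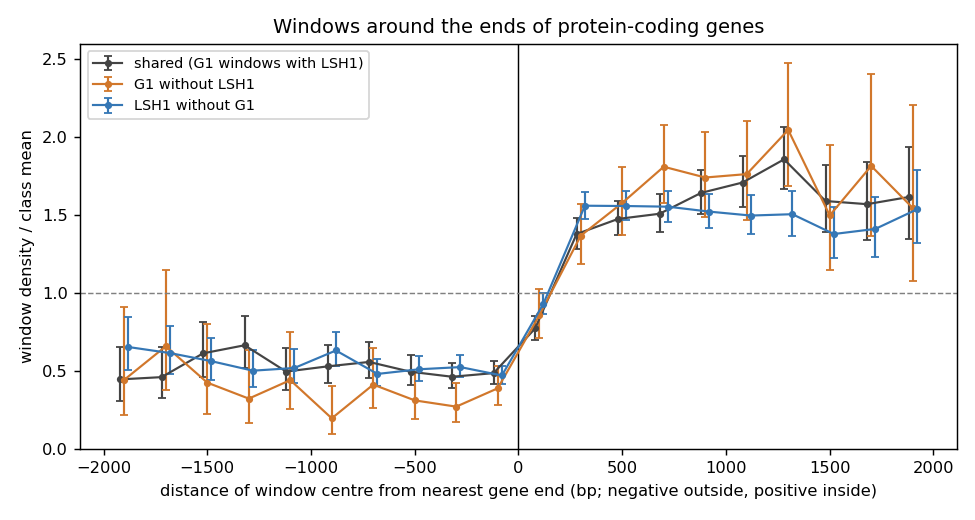
Density of window centres in 200 bp steps of distance from the nearest end of a protein-coding gene, divided by the mean density of the class over the chromosomes, with 95% Wilson intervals. The dashed line marks the mean. The density is below 1 outside genes in all 3 classes and rises inside, to 1.86 for shared windows and 2.05 for G1 without LSH1 at 1200 to 1400 bp, where LSH1 without G1 is at 1.51.

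The placement near gene ends depended on how many other proteins held the window. Of LSH1 windows held by no other list, 50.3% (48.2 to 52.5%) lay inside genes within 600 bp of an end, against 24.5% (22.9 to 26.1%) of the LSH1 windows without G1 held by all 5 other lists, a difference of 25.9 points (23.2 to 28.6). Windows of G1 and LSH1 in no other list stood at 40.5% (36.5 to 44.7%), and G1 windows in no other list at 34.0% (30.6 to 37.5%). LSH1 windows of 1 list alone thus exceeded such G1 windows by 16.4 points (12.3 to 20.4), and shared windows of the pair alone exceeded them by 6.58 points (1.26 to 11.9). In all 3 classes the windows held by all 5 other lists were at 24.4 to 24.6%, close to the 24.8% of bases there. Just outside genes the order was reversed. That zone held 5.18% (4.30 to 6.24%) of LSH1 windows in no other list and 16.1% (14.8 to 17.5%) of LSH1 windows without G1 in all 5, and 5.59% (3.96 to 7.82%) and 13.4% (12.3 to 14.7%) of the shared G1 windows. For G1 windows without LSH1 the shares were 5.95% (4.46 to 7.90%) and 10.8% (7.41 to 15.4%).

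**Figure D4:**
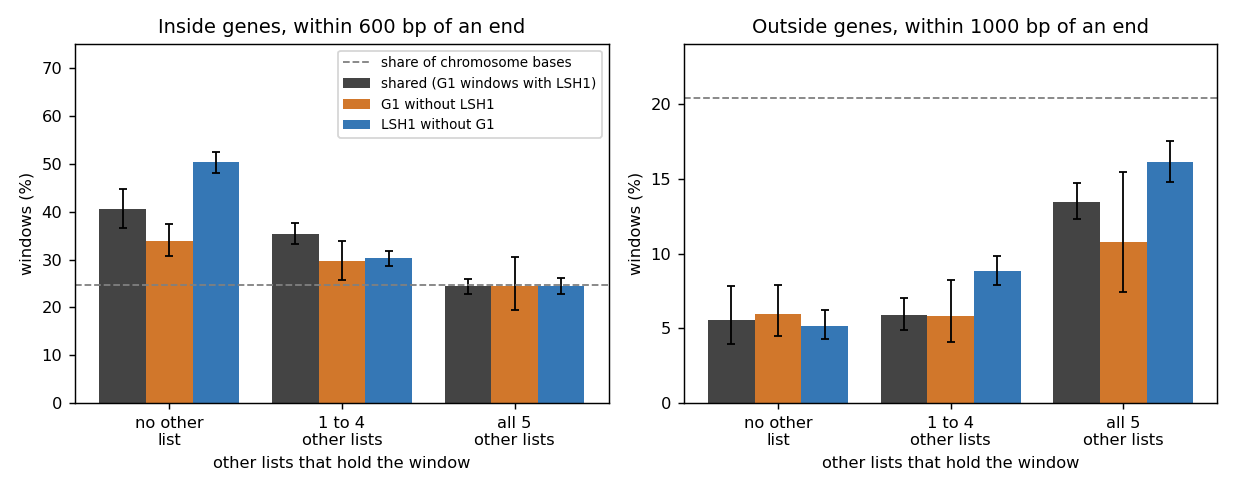
Percentage of windows of each class inside genes within 600 bp of an end (left) and outside within 1000 bp of an end (right), by the number of other lists that hold them, with 95% Wilson intervals. Dashed lines mark the share of chromosome bases in each place, 24.8% and 20.4%. LSH1 windows in no other list are at 50.3% on the left, and windows of all 5 other lists are at 24.4 to 24.6%.

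Over all windows, pseudogenes held a larger share of the G1 windows that LSH1 lacked. Counting centres outside protein-coding genes, 8.37% (7.06 to 9.89%) of G1 windows without LSH1 lay in a pseudogene, against 6.001% (5.40 to 6.66%) of shared G1 windows and 5.05% (4.60 to 5.54%) of LSH1 windows without G1. The differences were 2.37 points (0.90 to 4.01) and 3.32 points (1.92 to 4.91), while 8.68% of the bases lie in such pseudogenes. In no other list, the shares of unshared and shared G1 windows were 9.88% (7.93 to 12.2%) and 7.03% (5.18 to 9.46%). In 1 to 4 other lists they were 8.02% and 7.88%, and in all 5 they were 4.31% and 4.73%. LSH1 windows without G1 were at 5.88%, 5.49% and 3.91%. The 123 pseudogene windows of G1 without LSH1 were spread over 114 pseudogenes, and 73 of them were in no other list. Pseudogenes can be near-identical copies of one another, and how the authors treated reads with several matches is not given in the sources used here. Segments of 1 Mb in which under 25% of the bases are genic held 10.3% (8.82 to 11.9%) of G1 windows without LSH1, 8.52% (7.81 to 9.30%) of shared ones and 7.38% (6.84 to 7.97%) of LSH1 windows without G1, against 15.9% of the bases.

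Windows were then assigned to genes, first to a gene with 2000 bp on both sides. Of 27444 protein-coding genes, 7574 (27.6%) had a shared window, 955 (3.48%) had G1 and no LSH1 window, 6686 (24.4%) had LSH1 and no G1 window, and 658 (2.4%) had both proteins but never in the same window. A window of either protein was present in 15865 genes (57.8%). Of the 9179 genes with a G1 window (33.4% of all), 89.6% (89.0 to 90.2%) also had LSH1. Of the 14910 genes with LSH1 (54.3%), 55.2% (54.4 to 56.0%) also had G1. Neighbouring genes can share a window at this distance.

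In gene bodies alone, 3809 genes (13.9%) had a shared window, 689 (2.51%) G1 and no LSH1, 4249 (15.5%) LSH1 and no G1, and 241 (0.878%) both proteins apart. Any G1 window was present in 4730 bodies (17.2%), any LSH1 window in 8290 (30.2%) and either in 8979 (32.7%). The most frequent case was a single shared window, in 3313 genes, and 16 genes had 4 or more. Of the 1191 genes with an unshared G1 window in the body, 42.9% (40.1 to 45.7%) also had an LSH1 window elsewhere in the body. Of the 5536 genes with an unshared LSH1 window, 23.5% (22.4 to 24.6%) had G1 elsewhere. Over all gene bodies, 30.2% had LSH1 and 17.2% had G1. The genes with an unshared G1 or LSH1 window were longer, with medians of 2864 and 2797.5 bp against 2078 bp for all. Whether the other protein reached them more often than their length would give was not tested.

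Longer genes were reached more often. The median length was 2909 bp for genes with a shared window in the body, 2425 bp for genes with G1 and no LSH1 and 2573 bp for genes with LSH1 and no G1, against 2078 bp for all. A shared window was present in 3.24% (2.76 to 3.81%) of genes under 1 kb and in 37.4% (35.1 to 39.8%) of genes of 5 kb or longer. Per length the rise was smaller, from 41.8 shared windows per Mb of gene under 1 kb to 72.3 per Mb at 5 kb or longer. Among genes with a G1 window, the part with a shared window rose from 68.9% (62.3 to 74.9%) under 1 kb to 87.3% (84.7 to 89.6%) at 5 kb or longer. A gene with more G1 windows is likelier by construction to have at least 1 that is shared. G1 windows without LSH1 had no such course per length, with 20.9 per Mb in the shortest genes and 17.6 per Mb in the longest.

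**Figure D5:**
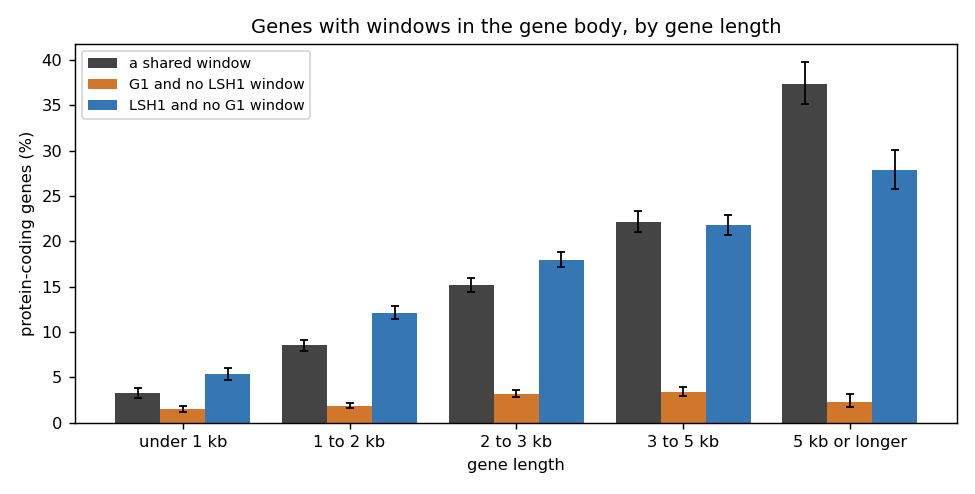
Percentage of protein-coding genes in each length group with a shared window, with G1 and no LSH1 window, and with LSH1 and no G1 window in the gene body, with 95% Wilson intervals. Shared windows rise from 3.24% of genes under 1 kb to 37.4% of genes of 5 kb or longer. G1 without LSH1 goes from 1.49% under 1 kb to 3.44% at 3 to 5 kb and is at 2.32% at 5 kb or longer.

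Among individual genes, the highest numbers of shared windows in the body were found in long genes. AT5G40450 had 6, and its 2 further LSH1 windows were held by all 5 other lists. MOM (AT1G08060), which maintains transcriptional silencing, had 5 shared windows and 1 further G1 window on chromosome 1 at 2508226 to 2508425 that no other list held. LNO1 (AT1G55540), a nucleoporin, likewise had 5 shared windows and a G1 window alone, at 20736631 to 20736830. In LNO1 that window lay between 2 shared ones, at 20736327 to 20736537 and at 20736852 to 20737052. GSK1 (AT1G06390), a kinase of the GSK3 family, had 4 shared windows, as did ALA3 (AT1G59820), a phospholipid-transporting ATPase, and EMB2753 (AT1G80410), named for its embryo-defective mutant. ALA3 had 2 more shared windows in its flank. All 4 of EMB2753 were in all 5 other lists, against 1 of the 4 in GSK1. In this ranking a window was counted in the body that holds its centre, and 13 genes had 4, from which these 3 were taken by symbol and identifier.

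Ranked per length among genes with at least 3, shorter genes came first, which such a ranking favours by construction. AT1G43580 had 3 shared windows at 1.27 per kb, TMKL1 (AT3G24660), a receptor-like kinase, 3 at 1.26 per kb and AT3G28480 3 at 1.25 per kb. GRF4 (AT3G52910), a growth-regulating transcription factor, had 3 within a short stretch of chromosome 3, at 19617316 to 19617522, 19617684 to 19617886 and 19618032 to 19618250. The outer windows of GRF4 were in no other list, and the middle one was in all 5. AT1G63540 followed with 3 and AT3G23370 with 4. The highest number of LSH1 windows in any gene body was 15, in AT1G76780, where G1 had 5 and 4 of them were shared, a gene named here because of that count.

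Few of the 27444 protein-coding genes carried repeated G1 windows and no LSH1. AUL1 (AT1G75310), an auxilin-like gene, was the only gene with 3 such windows in its body and no LSH1 window in the gene or 2000 bp around it, and 14 genes had 2. In AUL1 they lay on chromosome 1 at 28263003 to 28263202 and, as an overlapping pair, at 28264490 to 28264863, and no other list held any of them. RSH3 (AT1G54130), an enzyme of guanosine tetraphosphate metabolism, had 2 windows held also by LSH3, 1 of them by LOS2 as well. In emb1427 (AT1G80260) 1 window was in no other list and 1 was held by LSH2, LOS1 and LOS2. CHX15 (AT2G13620), a cation exchanger of the CHX family, had a window of all 5 other lists on chromosome 2 at 5679962 to 5680161 and a further window held by 4. PFK5 (AT2G22480), a phosphofructokinase, and LDL3 (AT4G16310), a gene of the LSD1-like histone demethylase family, each had 1 window in all 5 other lists and 1 in none. At 1 site in each of CHX15, PFK5 and LDL3, LSH1 was thus the only list without a window.

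Repeated LSH1 windows without G1 were more frequent, with 6 of the 27444 protein-coding genes at 5 windows, 15 at 4 and 79 at 3. This class is larger, with 8263 windows against 1470 of G1 without LSH1. Whether the repeats exceeded what the class sizes give was not tested. XIB (AT1G04160), a class XI myosin, had 5 in its body, of which 2 were held by all 5 other lists, 2 by LSH2 and LSH3 alone and 1 by LSH2 alone. FAB1A (AT4G33240), a phosphoinositide kinase, had 3 windows of LSH1 with LSH2 and LSH3 only, on chromosome 4 at 16033930 to 16034129, 16034148 to 16034347 and 16035593 to 16035792. In AT3G28770, 4 of the 5 were held by LSH2 and no further list. AT3G22125 and AT3G22142 overlap in the gene table and share the same 5 windows. AT5G49470 had 5, of which 4 were in all 5 other lists.

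Of 29 floral meristem and organ identity genes, 10 had a shared window in the gene or within 2000 bp, 8 had LSH1 and no G1, 1 had both apart and none had G1 without LSH1. Those counts are 34.5%, 27.6%, 3.45% and 0% of the list, beside 27.6%, 24.4%, 2.4% and 3.48% of all protein-coding genes. The median length of these genes was 3075 bp, against 2078 bp for all. In gene bodies 7 (24.1%) had a shared window, 5 (17.2%) LSH1 and no G1, and 2 (6.90%) both apart. Over all genes these were 13.9%, 15.5% and 0.878%. No share was tested.

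CAL (AT1G26310), a floral meristem identity gene, had 3 shared windows and no unshared window, 2 of them in the body on chromosome 1 at 9101258 to 9101462 and 9102505 to 9102735. These 2 were in all 5 other lists, and the remaining one, in the flank, was held by LSH2 only. LFY (AT5G61850), a regulator of floral meristem identity, had 2 shared windows that all 5 other lists held. Beside the one in its body, at 24845008 to 24845227 on chromosome 5, LSH1 alone of the 7 proteins had a window at 24845264 to 24845463. AP1 (AT1G69120), another meristem identity gene, had 1 shared window in the body at 25983601 to 25983803 on chromosome 1. Its flank held a window of every protein but G1 at 25986596 to 25986795. AP3 (AT3G54340), which specifies petals and stamens, had 2 shared windows and 1 LSH1 window without G1.

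UFO (AT1G30950), a partner of LFY, had an LSH1 window and no G1 window, although all 5 other lists held it, on chromosome 1 at 11036158 to 11036357. PI, AG and SEP3, all floral organ identity genes, had no window of either protein in the gene or 2000 bp. In SEU (AT1G43850), which encodes a corepressor that acts in flowers, the body held 2 LSH1 windows without G1 and 1 G1 window without LSH1, the last at 16621655 to 16621854 on chromosome 1 and in no other list. Its 1 shared window was in the flank.

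Of 21 boundary and KNOX/BELL genes, 7 (33.3%) had a shared window, 8 (38.1%) LSH1 and no G1, and 0 the reverse, beside 27.6%, 24.4% and 3.48% of all genes. In gene bodies 2 (9.52%) had a shared window and 7 (33.3%) LSH1 and no G1, beside 13.9% and 15.5% of all genes. LOF1 (AT1G26780), a MYB gene of organ boundaries, had 2 shared windows in its flanks, the second of them, at 9272779 to 9273011 on chromosome 1, in no other list. KNAT6 (AT1G23380), a KNOX homeobox gene, had 1 shared window in the body and 1 G1 window without LSH1 in its flank. PNF (AT2G27990), a BELL homeobox gene, had 1 shared and 2 unshared LSH1 windows, all in its flanks. BOP1 (AT3G57130), a gene of leaf and floral organ boundaries, had 1 window of LSH1 without G1 and 1 shared window whose edge reached into the 2000 bp, both in its flank, and BOP2 had none. CUC1 (AT3G15170) and CUC3 (AT1G76420), NAC genes of organ separation, had 1 LSH1 window each without G1, and CUC2 had none. STM (AT1G62360), which maintains the shoot meristem, had 1 in its body, held besides LSH1 by LSH2 and LSH3 only.

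Of the 10 ALOG genes of Arabidopsis, 1 had a shared window (LSH7) and 4 had LSH1 without G1 (LSH3, LSH4, LSH6 and LSH9), and LSH1, LSH2, LSH5, LSH8 and LSH10 had neither. The counts of 1 and 4 are 10% and 40% of a small list, beside 27.6% and 24.4% of all genes, and the ALOG genes are short, with a median of 1310 bp against 2078 bp. The shared window of LSH7 (AT1G78815) was in its flank on chromosome 1 at 29631455 to 29631658 and in all 5 other lists. LSH7 also had an LSH1 window in the body, at 29632445 to 29632644, that no other list held. The windows of LSH3, at 13278846 to 13279045 on chromosome 2, and LSH4, at 8325672 to 8325871 on chromosome 3, were in every list but G1.

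Of 31 genes of flowering time, 12 (38.7%) had a shared window, 10 (32.3%) LSH1 and no G1, and 1 (3.23%) the reverse, which was TOE2, an AP2-like repressor named here because it was the only one. Over all protein-coding genes the shares were 27.6%, 24.4% and 3.48%. The listed genes had a median length of 3110 bp, against 2078 bp for all. FKF1 (AT1G68050), a blue light receptor of the flowering pathway, had 2 shared windows in its body and no unshared one. SNZ (AT2G39250), another AP2-like repressor, and SPL15 (AT3G57920), a phase change gene, had 2 shared windows each, in their flanks. LD (AT4G02560), an activator of flowering, had 1 in its body and 1 in its flank.

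Of 14 genes of meristem maintenance and leaf polarity, 3 (21.4%) had a shared window, 4 (28.6%) LSH1 and no G1, and 0 the reverse. Beside these stand 27.6%, 24.4% and 3.48% of all genes. The median length was 3237.5 bp, against 2078 bp for all. CLV1 (AT1G75820), a receptor kinase that limits stem cell number, had its shared window in the body at 28466635 to 28466844 on chromosome 1. AS2 (AT1G65620), a leaf polarity gene, and ATHB8 (AT4G32880), a gene of the HD-ZIP III class, had theirs in the flanks, held by all 5 other lists.

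Of 23 cytokinin genes, 7 (30.4%) had a shared window, 7 (30.4%) LSH1 and no G1, and 2 (8.70%) the reverse, the response regulator ARR6 and the cytokinin-activating enzyme LOG7, both named for being the only ones. Over all genes the shares were 27.6%, 24.4% and 3.48%, and the median length was 2078 bp, against 2990 bp in this list. ARR12 (AT2G25180), a type-B response regulator, had 3 LSH1 windows in its body. Of these, the one shared with G1, at 10725925 to 10726149 on chromosome 2, was in no other list, while an unshared one at 10725133 to 10725332 was in all 5. ARR1 (AT3G16857), of the same type, ARR15 (AT1G74890), a type-A regulator, and LOG4 (AT3G53450) had 1 shared window each, in their flanks.

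Of 21 light signalling genes, 8 (38.1%) had a shared window, 4 (19.0%) LSH1 and no G1, and 1 (4.76%) the reverse, which was COP1, a light signalling repressor named here for being the only one. Among all genes the shares were 27.6%, 24.4% and 3.48%. The light signalling genes were long, with a median of 3887 bp against 2078 bp for all. SPA2 (AT4G11110), a partner of COP1, had 2 shared windows in its body, both in all 5 other lists, and 2 LSH1 windows without G1. DET1 (AT4G10180), a repressor of light responses, had 1 shared window in its flank and 1 in its body, the latter held by TMF alone of the others. PHYB (AT2G18790), a red light receptor, and FHY1 (AT2G37678), which carries phytochrome A into the nucleus, had 1 shared window each in the flank.

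The comparison list of 16 housekeeping genes had 9 (56.3%) with a shared window, 4 (25%) with LSH1 and no G1, and 0 with the reverse. These stand beside 27.6%, 24.4% and 3.48% of all genes. Their median length was 2505.5 bp, against 2078 bp for all. GAPC1 (AT3G04120), a glycolytic enzyme, had 3 shared windows and UBQ10 (AT4G05320), a polyubiquitin gene, had 2. The tubulin genes TUB2 (AT5G62690) and TUA2 (AT1G50010) had 2 and 1. TUB2 has a near-identical neighbour and reads of both copies may not be told apart. The other 7 lists had 10% to 38.7% of their genes with a shared window. The counts are small and no list was tested.

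Gene families were picked by words in their names, and no difference between them was tested. Over all protein-coding gene bodies, shared windows had a density of 65.0 per Mb of gene and LSH1 windows without G1 100.1 per Mb. In 215 cytochrome P450 genes, a family of oxidising enzymes, both were low, at 25.1 per Mb (12 windows) and 44.0 per Mb (21 windows). In 35 genes of motor proteins, shared windows stood at 21.3 per Mb (5 windows) and LSH1 windows without G1 at 131.8 per Mb (31 windows). In 98 MADS-box genes the order was the other way, with 62.6 per Mb shared (13 windows) and 38.5 per Mb LSH1 without G1 (8 windows). The 62 ribosomal protein genes had 30.4 per Mb (3 windows) and 121.4 per Mb (12 windows). Protein kinases, the largest family with 517 genes, had 71.0 per Mb (113 windows) and 92.4 per Mb (147 windows), near the values of all genes. The other families, with counts from 4 to 30 shared windows, ranged from 47.4 to 75.1 per Mb shared and from 56.8 to 136.6 per Mb for LSH1 without G1.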

How the data were processed

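The lists hold window positions only, with no count, score or p-value, as deposited by the authors. Per the submitters' processing notes, Bowtie2, SAMtools and MACS2 were used, with no version. The genome build is not given in the sources used here. Per the series' design text, only peaks common to 3 replicates were kept. Groups came from the titles. The origin of each protein is background knowledge.

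Gene names and extents came from RefSeq's TAIR10.1 table. Since no build is stated for the windows, their fit to it was checked by shifting them to higher coordinates: the share of G1 and LSH1 centres in gene bodies was 78.2% and 77.5% unshifted, 73.5% and 71.9% after 500 bp, and 61.4% and 61.9% after 5000 bp. Only window coordinates, counted from 1, are printed.

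A centre in overlapping genes took its largest depth. Overlap needed 1 bp, also for the other lists. Of 168 list genes, 165 matched. Families needed 20 genes, and one whose search word also hits "SUPPRESSOR" was left out. The genes named were LFY to STM and LSH1 to LSH10, up to 4 per list with the most shared windows, and 6 per ranking, with ties broken by having a symbol and then by identifier. Members, lists and rule were chosen with earlier results of these data known. The scripts, tested on simulated lists, ran under Python 3.11.15 with scipy 1.17.1, pandas 2.3.3, numpy 2.4.6 and matplotlib 3.10.9. Promoter sequence and motifs, though planned, were not analysed here.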

Additional observations from a re-analysis of the deposited data

How the results depend on the processing

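Of 121 values recomputed, 75 stayed within the interval of the reported share or within 1.5 times the reported count and 46 moved. Some of the 75 could not change. Restricting unshared windows to those at least 1000 bp away leaves the shares of shared windows as they are. The overlap rule likewise leaves the 955 genes with G1 and no LSH1 and the 6686 with LSH1 and no G1 as they are. Among the 121 values, no gene body difference whose interval left out 0 changed sign. Windows in no other list were not a setting here, and among them both such differences had the opposite sign. Shared minus unshared G1 windows gave 3.99 points there (-0.23 to 8.08). Unshared LSH1 minus unshared G1 windows gave 4.43 points (1.28 to 7.79). The gene body difference between LSH1 windows with and without G1, whose interval includes 0, went from -0.63 points to 0.19 with all genes of the table and to 0.87 among windows that a further list also held. No paired analysis was possible because each protein has 1 consensus list. The promoter alternative was not run, as no sequence was used.

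With 100 bp of overlap required, LSH1 held 77.2% of G1 windows and G1 38.7% of LSH1 windows. Centres within 20 bp gave 58.6% and 29.4%, and leaving out windows within 200 bp of another in their list gave 74.3% and 39.0%. A stricter overlap lowers shares by construction. With 100 bp, the windows in no other list and in all 5 were 11.2% and 55.0% for G1 with LSH1, 55.3% and 13.5% for G1 without LSH1, 11.2% and 55.1% for LSH1 with G1, and 26.6% and 32.1% for LSH1 without G1. With centres within 20 bp they were 17.1% and 39.9%, 65.7% and 4.30%, 15.2% and 42.3%, and 35.9% and 19.2%, in the same order of classes.

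With any overlap in place of the centre, gene bodies held 78.9% of G1 windows with LSH1, 78.7% of LSH1 windows with G1 and 79.5% of LSH1 windows without G1. Counting all genes of the table, which adds pseudogenes, they held 84.2%, 84.1% and 83.9%, and 90.3% of G1 windows without LSH1, which raised the difference between the unshared classes to 6.40 points. All alternatives for differences, the restriction to windows that a further list also held and that to unshared windows at least 1000 bp away were chosen after seeing the data. Among windows that a further list also held, gene bodies held 75.5% of LSH1 windows without G1 and the near outside 12.1%. The difference between the unshared classes was then 6.72 points. With unshared windows at least 1000 bp away it was 2.64 points, and that of shared minus unshared G1 windows was -2.54 points in place of -4.08. The cause was not tested.

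Genes with both proteins apart numbered 2269 with centres within 20 bp, 426 with 1000 bp flanks and 241 in gene bodies, where shared windows were in 3809 genes and LSH1 without G1 in 4249. In gene bodies, genes with a shared window were 7 (24.1%) for floral identity and 7 (22.6%) for flowering time. There were 2 (9.52%) for organ boundary, 1 (7.14%) for meristem maintenance and 2 (8.70%) for cytokinin. Light signalling had 5 (23.8%), the ALOG family 0 (0%) and housekeeping 5 (31.25%). Over all protein-coding genes the share was 13.9%. A smaller interval holds fewer windows. The unknown depth limits all counts, since a deeper list would hold more windows.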
